A study of Mus musculus with 12 samples.

Results

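Avp, Oxt, Otp and Sim1 are genes of the vasopressin and oxytocin neurons of the hypothalamus, and their levels are described here in 12 mouse brain libraries. They were taken from the deposited expression table by gene name and are 4 of the 55385 genes listed. The set was chosen by the FPKM of these genes in the same 12 libraries, with the contrast of C_W and MS_W in view, so their levels and differences are a description and were given no test. Whole brains came from 12 male wild-type C57BL/6J mice, 3 in each of 4 groups, out of 8 mice per group in the study. The C_W group had no stress and was given water, and the C_O group had no stress and was given krill oil. The MS_W group went through chronic unpredictable mild stress (CUMS) and was given water, and the MS_O group went through CUMS and was given krill oil. Krill oil was given by gavage at 200 mg/kg per day for 5 weeks, and CUMS lasted 4 weeks. The mice were 8 weeks old when bought, and all were perfused with saline before the brain was taken. Poly(A) RNA of each brain was made into 1 library, and a name such as MS_W95 joins the group to the number of the mouse.

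Vasopressin and oxytocin are short peptides made by large neurons of the paraventricular and supraoptic nuclei, which send axons to the posterior pituitary and release the hormones into the blood. Vasopressin acts on water balance and, with corticotropin-releasing hormone, on the stress axis. Oxytocin acts in birth, lactation and social behavior. Sim1 and Otp are transcription factors that these neurons need in order to form, and Otp is also used by other hypothalamic and hindbrain neurons.

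Levels are given as FPKM (sequenced fragments relative to transcript length and to the depth of the library), in which a gene without signal was listed at 0.0001. The table also gave an estimated count for each gene, derived from coverage, and these summed to between 50912906 and 75678721 per library (median 59331216). No counting interval was set on them, since they are not counts of single reads. C_O72 and MS_W95 differed from the other libraries as a whole. Their log2(FPKM + 1) values had a Pearson correlation of 0.970 with each other and at most 0.937 with the other 10, against at least 0.959 among those 10. Differences are therefore given with all 12 libraries and with the 10 that remain without C_O72 and MS_W95. In these whole-brain samples, fewer cells of a type and less RNA per cell cannot be told apart.

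Avp (ENSMUSG00000037727) encodes the precursor of vasopressin and lies on chromosome 2, minus strand, from 130580620 to 130582554 (GRCm38). Oxt (ENSMUSG00000027301) encodes the precursor of oxytocin and lies on the plus strand of the same chromosome, from 130576173 to 130577054. The genes are transcribed toward each other, with 3565 bases between their ends. The 250 bases before the start of each, from RefSeq on GRCm38.p6, are shown because these neighbours moved together from library to library. The Avp window is chr2:130582589-130582838 on the minus strand and the Oxt window is chr2:130575919-130576168 on the plus strand. Both run 5′ to 3′, and capitals mark the E-box CACGTG in Avp and TGACCTTGA in Oxt, an extended half-site of nuclear receptors read on the opposite strand as TCAAGGTCA.
Avp: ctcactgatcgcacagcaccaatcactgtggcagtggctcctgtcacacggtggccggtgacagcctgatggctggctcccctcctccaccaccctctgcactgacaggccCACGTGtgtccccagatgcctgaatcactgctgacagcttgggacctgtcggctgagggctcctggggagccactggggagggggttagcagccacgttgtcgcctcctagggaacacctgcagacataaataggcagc
Oxt: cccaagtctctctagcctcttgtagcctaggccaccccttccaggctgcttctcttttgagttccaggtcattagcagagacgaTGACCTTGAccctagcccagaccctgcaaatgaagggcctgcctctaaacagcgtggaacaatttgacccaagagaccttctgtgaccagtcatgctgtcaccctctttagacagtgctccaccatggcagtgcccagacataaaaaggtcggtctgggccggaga
The E-box lay at bases -139 to -134 from the Avp start and was found in 6.02% of 32851 promoter windows of this length. The half-site lay at bases -166 to -158 from the Oxt start and was found in 0.387% of windows. Its letters were chosen for search after the Oxt sequence had been seen. The cAMP response element TGACGTCA, the central midline element TACGTG and the homeodomain site TAATTA were searched on both strands too. These letters were not in the windows of Avp, Oxt, Otp or Sim1, and were found in 1.55%, 2.72% and 4.84% of windows.

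Avp was high in 2 of the 3 MS_W brains and low or not detected in C_W. In the C_W mice its FPKM was listed at 0.0001 in C_W1 and C_W64 and was 0.435 in C_W70. In the C_O mice it was 0.556 in C_O15, 7.00 in C_O30 and 1.06 in C_O72. Among the MS_W mice MS_W31 had 32.3, MS_W75 had 59.3 and MS_W95 had 0.185, and in the MS_O mice it was 1.49 in MS_O13, 0.916 in MS_O46 and 2.10 in MS_O78. MS_W31 and MS_W75 were thus above every other library, and MS_W95 was below all libraries of C_O and MS_O and below C_W70. The lower of the high pair was 4.62 times the next library, C_O30. MS_W31 and MS_W75 together held 86.96% of the Avp FPKM summed over the 12 brains. Ranked by FPKM, Avp was gene number 672 in MS_W75, 1363 in MS_W31, 5732 in C_O30 and 18681 in MS_W95. The estimated counts behind these values were 1197 in MS_W31, 1989 in MS_W75 and 8 in MS_W95, and summed to 22 over the 3 C_W brains.

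Oxt had its highest values in the same brains. Its FPKM was listed at 0.0001 in C_W1 and was 0.353 in C_W64 and 0.347 in C_W70. It was 0.177 in C_O15, 5.31 in C_O30 and 0.786 in C_O72. It was 20.2 in MS_W31, 32.7 in MS_W75 and 0.392 in MS_W95, and 0.592, 0.272 and 0.721 in MS_O13, MS_O46 and MS_O78. The MS_W group lay above the C_W group without overlap, but by a narrow margin in MS_W95, whose value rested on 15 estimated counts against 15 in C_W64 and 16 in C_W70. The lower of MS_W31 and MS_W75 was 3.80 times C_O30, the next library, and both held 85.5% of the summed Oxt FPKM.

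Otp (ENSMUSG00000021685, chromosome 13, plus strand, 94875602 to 94885130) was high in all 3 MS_W brains and in 1 C_O brain. Its FPKM was 0.0152 in C_W1 and 0.0320 in C_W64 and was listed at 0.0001 in C_W70. It was listed at 0.0001 in C_O15 and was 0.142 in C_O30 and 3.24 in C_O72. It was 1.56 in MS_W31, 1.36 in MS_W75 and 1.07 in MS_W95, and 0.0791 in MS_O13, 0.0218 in MS_O46 and 0.0202 in MS_O78. The MS_W group was above the C_W and MS_O groups without overlap, and its 3 brains were close to each other, unlike those for Avp and Oxt. The highest library was C_O72, which held 43.02% of the summed Otp FPKM and had 535 estimated counts. In C_W the gene had 12 estimated counts over the 3 brains, and in MS_W 731.

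Sim1 (ENSMUSG00000019913, chromosome 10, plus strand, 50894754 to 50989152) was listed at 0.0001 in all 9 brains of C_W, C_O and MS_O. In MS_W its FPKM was 0.141 in MS_W31, 0.194 in MS_W75 and 0.00600 in MS_W95, with 79, 98 and 4 estimated counts. The value of MS_W95 was above the others by only these 4 counts. With a mean of 0.0284 over the 12 libraries, Sim1 fell below the filter on low values (a mean FPKM of 0.1) and was the only one of the 4 genes left out of the fits across all genes. No fold is given for it, because the other groups were listed at 0.

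**Figure D1:**
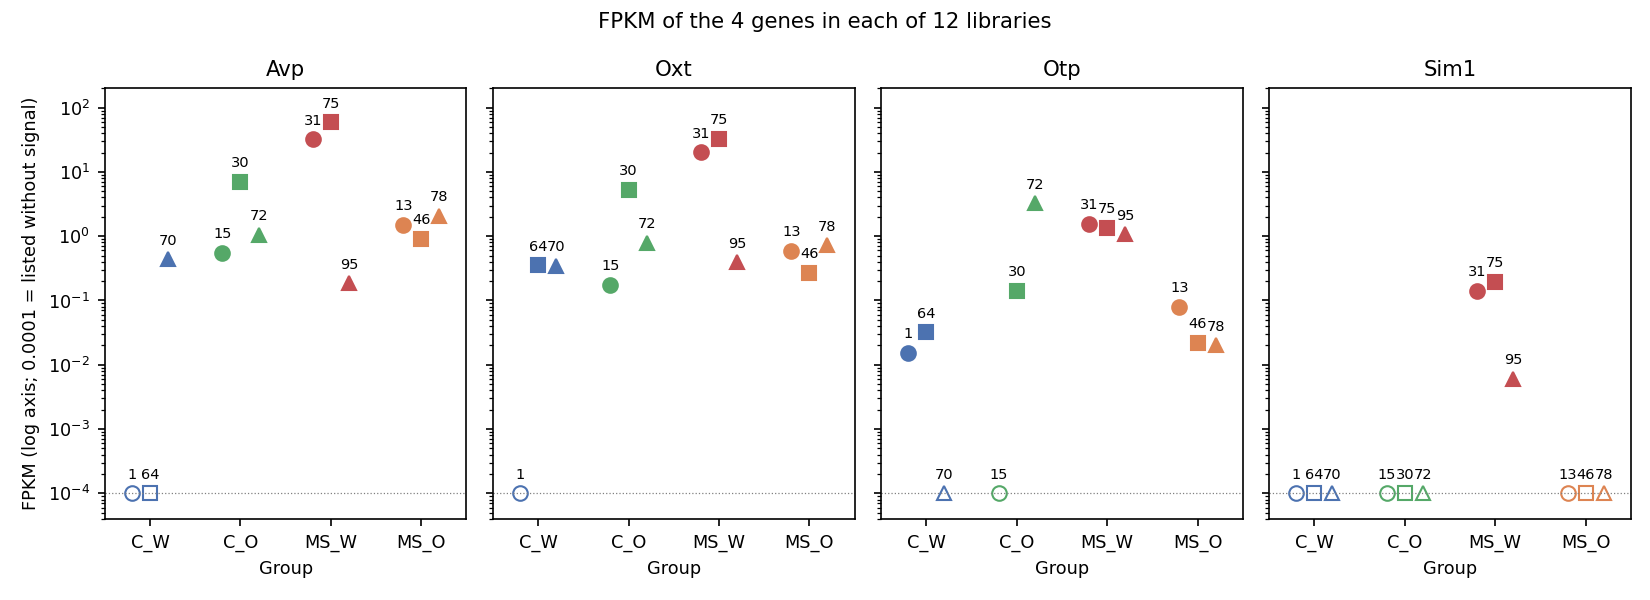
FPKM of Avp, Oxt, Otp and Sim1 (log axis) in each library, with groups on the horizontal axis and the mouse number above each point. Open points on the dotted line are libraries where the gene was listed at 0.0001, and MS_W31 and MS_W75 are the highest libraries for Avp, Oxt and Sim1 while C_O72 is the highest for Otp at 3.24.

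Between the unstressed and the stressed mice on water, the 4 genes were higher in MS_W on average. The difference of mean log2(FPKM + 1), MS_W minus C_W, was 3.57 for Avp (standard error (SE) 1.36), 3.03 for Oxt (SE 1.15) and 1.19 for Otp (SE 0.48). The SE comes from 1 limma fit of the 4 groups, so it carries the wide spread within MS_W. Without C_O72 and MS_W95, the Avp difference was 5.31, that of Oxt 4.45 and that of Otp 1.27. Without MS_W75, Avp fell to 2.48 and Oxt to 2.15, so the size of both rested on single brains, while Otp stayed at 1.18. Every MS_W brain was above every C_W brain for 3 of the 4 genes, Oxt, Otp and Sim1. The same held for 16.3% of the 21393 genes that passed the filter. This contrast took part in the choice of the genes, so nothing is read from that count.

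Between the stressed groups, the 4 genes were lower on average with krill oil than with water. MS_O minus MS_W, the difference of mean log2(FPKM + 1) was -2.44 for Avp, -2.72 for Oxt and -1.16 for Otp with 12 libraries. It was -4.19, -4.14 and -1.24 with 10, and without MS_W75 it was -1.36 for Avp and -1.84 for Oxt. Otp and Sim1 were below every MS_W brain in every MS_O brain, as were 7.66% of tested genes. Avp and Oxt overlapped, since MS_W95 had less Avp than every MS_O brain and less Oxt than MS_O13 and MS_O78. This comparison and the one above share the MS_W brains, so MS_W31 and MS_W75 enter both.

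Between the unstressed groups, Avp was higher in C_O than in C_W without overlap, the lowest C_O brain having 0.556 and the highest C_W brain 0.435. This held for 4.08% of tested genes. C_O minus C_W, the difference of mean log2(FPKM + 1) was 1.39 for Avp and 0.95 for Oxt, with SE of 1.36 and 1.15, and Oxt overlapped. Both rested on C_O30, without which they were 0.67 and 0.25. That of Otp was 0.74 with 12 libraries and 0.07 without C_O72 and MS_W95.

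Between the groups given krill oil, none of the 4 genes separated stressed from unstressed brains, while 12.2% of tested genes did not overlap in this comparison. MS_O minus C_O, the difference of mean log2(FPKM + 1) was -0.26 for Avp, -0.64 for Oxt and -0.70 for Otp. A single C_O brain set each value. Without C_O30, the difference became 0.46 for Avp and 0.06 for Oxt, and without C_O72 that of Otp became -0.04. Sim1 was listed at 0.0001 in all 6 brains.

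Ordered by the median FPKM of the groups, Avp ran from MS_W (32.3) over MS_O (1.49) and C_O (1.06) to C_W (0.0001). The values of MS_O and C_O overlapped, and MS_W95 brought the MS_W range over both. For Oxt the order was MS_W (20.2), C_O (0.786), MS_O (0.592) and C_W (0.347), and each neighbour in it overlapped with the next. For Otp it was MS_W (1.36), C_O (0.142), MS_O (0.0218) and C_W (0.0152), and again each neighbour overlapped with the next.

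Avp was above Oxt in most libraries, by an uneven margin. In the 10 libraries where both were above 0.0001, the ratio of Avp to Oxt FPKM lay between 0.473 in MS_W95 and 3.36 in MS_O46, with a median of 1.71, and Avp was above Oxt in 9 of them. At the high end it was 1.81 in MS_W75, 1.60 in MS_W31 and 1.32 in C_O30. Over the 12 libraries, the log2(FPKM + 1) values of Avp and Oxt had a Pearson's r of 0.983 and a Spearman's rho of 0.841. Between Sim1 and these genes r was 0.903 for Avp and 0.918 for Oxt. Otp was less like them, with r of 0.449 to Avp, 0.495 to Oxt and 0.504 to Sim1. In the 10 libraries without C_O72 and MS_W95 these became 0.928, 0.943 and 0.970. MS_W31 and MS_W75 were the highest libraries for Avp, Oxt and Sim1, and no r was computed without them. Both values of a point come from the same library.

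**Figure D2:**
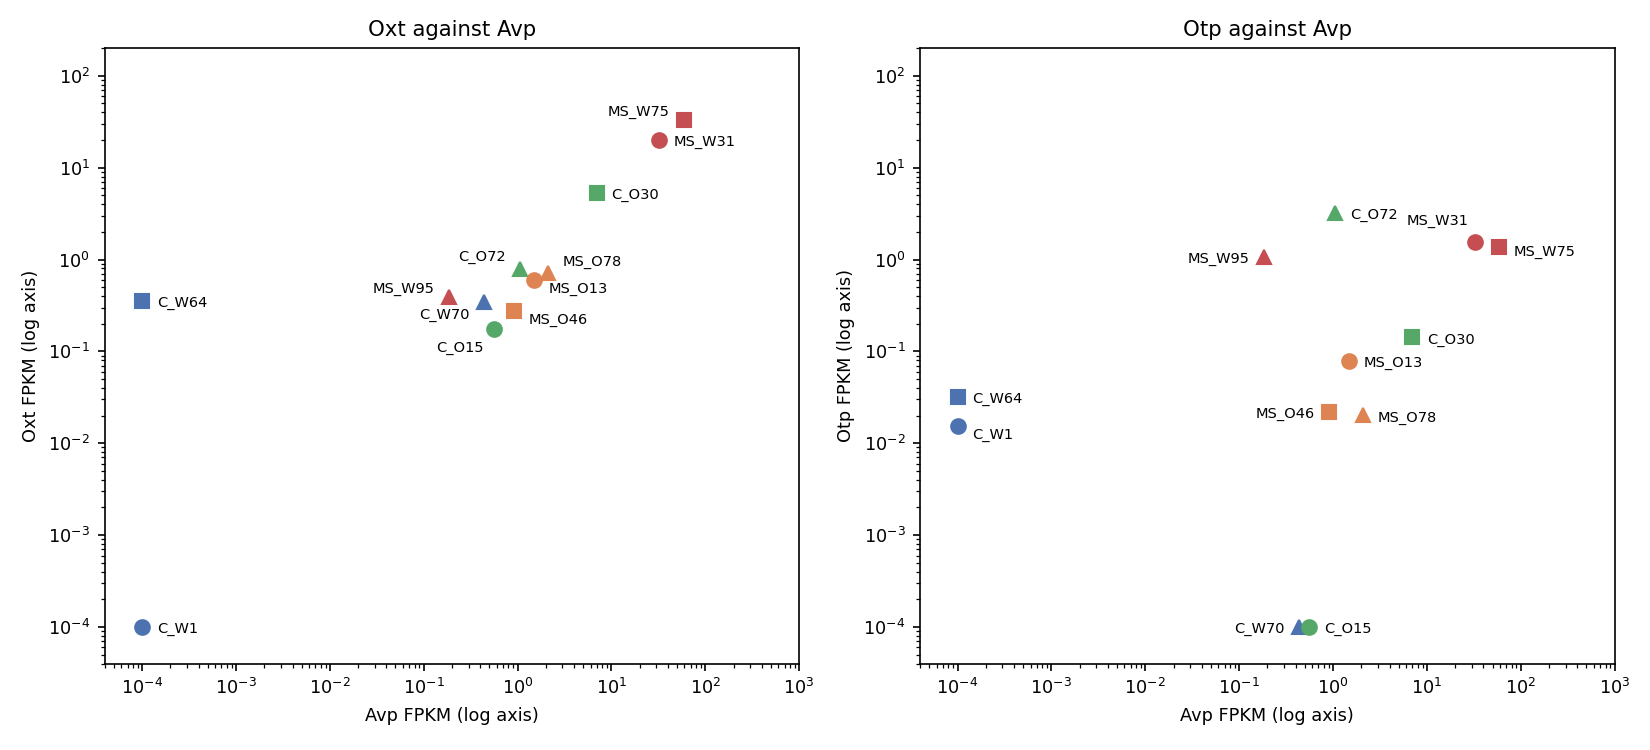
FPKM of Oxt (left) and Otp (right) against FPKM of Avp, both on log axes, with 1 point per library and values of 0.0001 marking no signal. Oxt rises with Avp up to MS_W75 at 59.3 and 32.7, while C_O72 and MS_W95 have high Otp beside an Avp of 1.06 and 0.185.

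The genes beside the Avp and Oxt pair did not share its pattern. Mrps26, which encodes a protein of the mitochondrial ribosome and lies 7477 bases before Oxt, had an FPKM between 8.00 and 9.77 in the 12 libraries. Ubox5, a ubiquitin ligase gene 7447 bases from Avp, had between 1.59 in C_O72 and 3.38 in MS_O13, and 2.61 and 2.95 in MS_W31 and MS_W75. The highest library was thus 1.22 times the lowest for Mrps26 and 2.13 times for Ubox5.

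The tested genes most like each of the 4 were taken as the 5 with the highest Pearson r of log2(FPKM + 1) over the 12 libraries. For Avp they were Oxt (0.983), Lhx8 (0.979), AI606473 (0.973), Oprk1 (0.967) and Gbx1 (0.959). For Oxt they were the same genes with Avp in place of Oxt. Lhx8 is a transcription factor of cholinergic neurons of the basal forebrain and Oprk1 is the kappa opioid receptor, which binds dynorphin. The FPKM of Lhx8 was 3.08 and 3.99 in MS_W31 and MS_W75, 0.656 in C_O30 and 0.0001 in MS_W95, so its high libraries were those of Avp. Oprk1 had 1.76, 2.36, 1.14 and 0.101 in these 4 libraries.

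For Otp the genes were Slc25a1 (0.984), Gm2926 (0.983), Slc5a7 (0.973), B630019K06Rik (0.968) and Pomgnt2 (0.958). Slc25a1 is the mitochondrial citrate carrier and Slc5a7 the choline transporter of cholinergic neurons. Slc5a7 had an FPKM of 4.65 in C_O72, between 1.92 and 2.49 in the MS_W brains and at most 0.825 in the other 8. For Sim1 the genes were Gm48485 (0.979), Nkx2-1 (0.975), Fezf1 (0.970), Sytl4 (0.970) and Ucn3 (0.967). Nkx2-1 and Fezf1 are transcription factors of the ventral hypothalamus, and Ucn3 encodes urocortin 3, a peptide of the corticotropin-releasing hormone family. Ucn3 was listed at 0.0001 in 10 libraries and had an FPKM of 1.09 in MS_W31 and 0.860 in MS_W75. The choice of libraries and measure mattered. Of the 5 genes, 2 for Avp, 3 for Oxt, 0 for Otp and 2 for Sim1 were also among the first 5 in the 10 libraries, and by Spearman's rho 0, 0, 1 and 1.

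**Figure D3:**
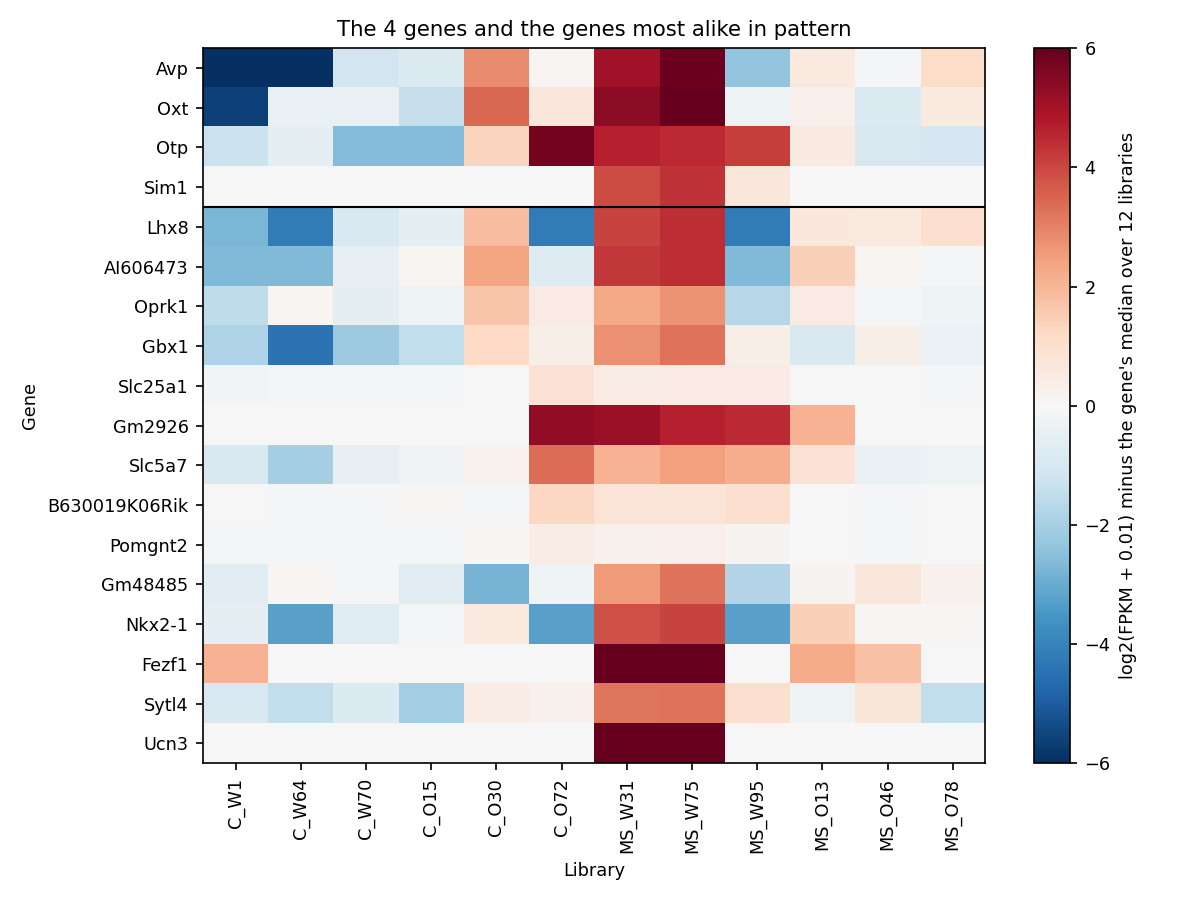
Heat map of the 4 genes (above the line) and the genes most like them (below), with libraries in columns and color giving log2(FPKM + 0.01) minus the gene's median over 12 libraries. MS_W31 and MS_W75 are the highest libraries for Avp, Oxt and Sim1 and for the genes most like them, and Otp, Gm2926 and Slc5a7 are also high in C_O72 and MS_W95.

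Some markers of other brain regions moved with the 4 genes and others did not. The summed FPKM of 10 genes of other hypothalamic nuclei was between 1.53 and 1.75 in C_W, 2.09 and 4.55 in C_O, 1.73 and 47.6 in MS_W, and 1.76 and 2.99 in MS_O. It was 47.6 in MS_W31, 5.71 in MS_W75 and 4.55 in C_O30, the libraries with the most Avp. Pmch, the melanin-concentrating hormone gene of the lateral hypothalamus, reached 34.0 FPKM in MS_W31, against 0.880 in MS_W75 and at most 1.00 elsewhere. Hcrt, which encodes the orexins of the same area, had 5.60 in MS_W31 and 0.858 in MS_W75 and was listed at 0.0001 in every C_W brain, as was Ghrh. Nkx2-1 had 1.37 and 1.59 in MS_W31 and MS_W75 and at most 0.247 elsewhere. Fezf1 had 0.821 and 0.694 there and at most 0.0379 elsewhere. Other members of the list did not share this order. Kiss1, the kisspeptin gene of neurons that drive reproduction, had 0.574, 0.409 and 0.607 in C_W, was listed at 0.0001 in MS_W31 and MS_W75, and had 0.0694 in MS_W95. Its difference of mean log2(FPKM + 1), MS_W minus C_W, was -0.58 (SE 0.18, limma, adjusted p = 0.325). That of Agrp, a peptide gene of feeding neurons, was 0.04. The markers of the suprachiasmatic nucleus, which also makes vasopressin, went different ways. The sum of 7 such genes did not follow Avp and was 12.3 in MS_W31 and 9.19 in MS_W75, between 14.1 and 16.8 in C_W, and 7.11 at its lowest in C_O72. In the C_W brains and in MS_W31 and MS_W75 most of that sum was Vip, Grp and Vipr2. Vip had an FPKM of 9.17, 9.62 and 10.3 in C_W and 4.88, 4.70 and 1.99 in MS_W. Its difference of mean log2(FPKM + 1), MS_W minus C_W, was -1.20 (SE 0.55, limma, adjusted p = 0.482). With the 10 libraries it was -0.89 (SE 0.14, limma, adjusted p = 0.0257), where 1.15% of all tested genes passed. Grp was also lower in every MS_W brain than in every C_W brain, and Vipr2 and Prok2 overlapped. Lhx1 was higher in every MS_W brain, with 0.115 in MS_W31, 0.179 in MS_W75 and 10.8 in MS_W95. It also had 3.63 in C_O72, and it made up most of the MS_W95 sum of 16.2. Nms and Six6 were below the filter. Nms was found in MS_W31 at 0.400 FPKM, in MS_W75 at 0.242 and in MS_O13 at 0.0421 and was listed at 0.0001 in the other 9 libraries. Six6 was highest in the libraries with the most Avp, with 0.0985 in MS_W31, 0.0743 in C_O30 and 0.0714 in MS_W75, and was at most 0.0226 elsewhere.

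C_O72 and MS_W95, which had high Otp beside low Avp, had the markers of the hindbrain and spinal cord. The sum of 7 such genes was 74.1 in C_O72 and 46.4 in MS_W95 and at most 0.444 in the other 10. Slc6a5, the glycine transporter of inhibitory hindbrain and spinal neurons, reached an FPKM of 47.2 in C_O72 and of 16.4 in MS_W95. The sum of 7 pituitary genes was 49.0 in C_O72 and at most 0.813 elsewhere. Most of it was Gh, growth hormone, at 47.3. Prl, prolactin, had 1.38 there and was listed at 0.0001 in the other 11 libraries. The rest of the list was low in C_O72. Tshb had 0.253 there and 0.596 in MS_W95, and Fshb had 0.0391 and 0.0338. Lhb had 0.00103 in C_O72, where Cga and Pou1f1 were listed at 0.0001. The thalamic and habenular sum was 28.5 in C_O72 and 34.7 in MS_W95 and at most 10.2 elsewhere. Most of it in these libraries was Slc17a6, at 22.0 and 19.6. Rora had 5.11 and 11.3, and Pou4f1 had 0.344 and 1.26 and was listed at 0.0001 elsewhere. Tcf7l2 and Lef1 were highest in MS_W95, at 1.84 and 0.692. In C_O72 they had 0.562 and 0.421, below the 0.643 and 0.496 of MS_W31.

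Markers of the cortex and striatum were present in every library but at unequal levels. The sum of 5 cortical genes was between 323 and 376 in C_W, 136 in MS_W31, 127 in MS_W75, 44.7 in MS_W95 and 31.5 in C_O72. For 5 striatal genes the sum was 245 in MS_W31, 369.8 in MS_W75 and, in MS_W95, 58.4, beside a range of 37.2 to 74.3 in C_W. Most of the MS_W95 sum was Ppp1r1b, at 54.4. Drd1 and Adora2a had 0.144 and 0.461 in MS_W95, below every C_W library, while Drd2 and Gpr6 lay within the C_W range. MS_W31 and MS_W75 thus had less of the cortical and more of the striatal markers than every C_W library. Every MS_O library also had a lower cortical sum and a higher striatal sum than every C_W library, at 222 to 262 and 103 to 259.7. Avp was at most 2.10 in these MS_O libraries. C_O15, with an Avp of 0.556, was likewise at 270 and 117. C_O30, the third highest in Avp, had a cortical sum of 373 and a striatal sum of 185. The part of these markers in the levels of Avp, Oxt, Otp and Sim1 was not tested.

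**Figure D4:**
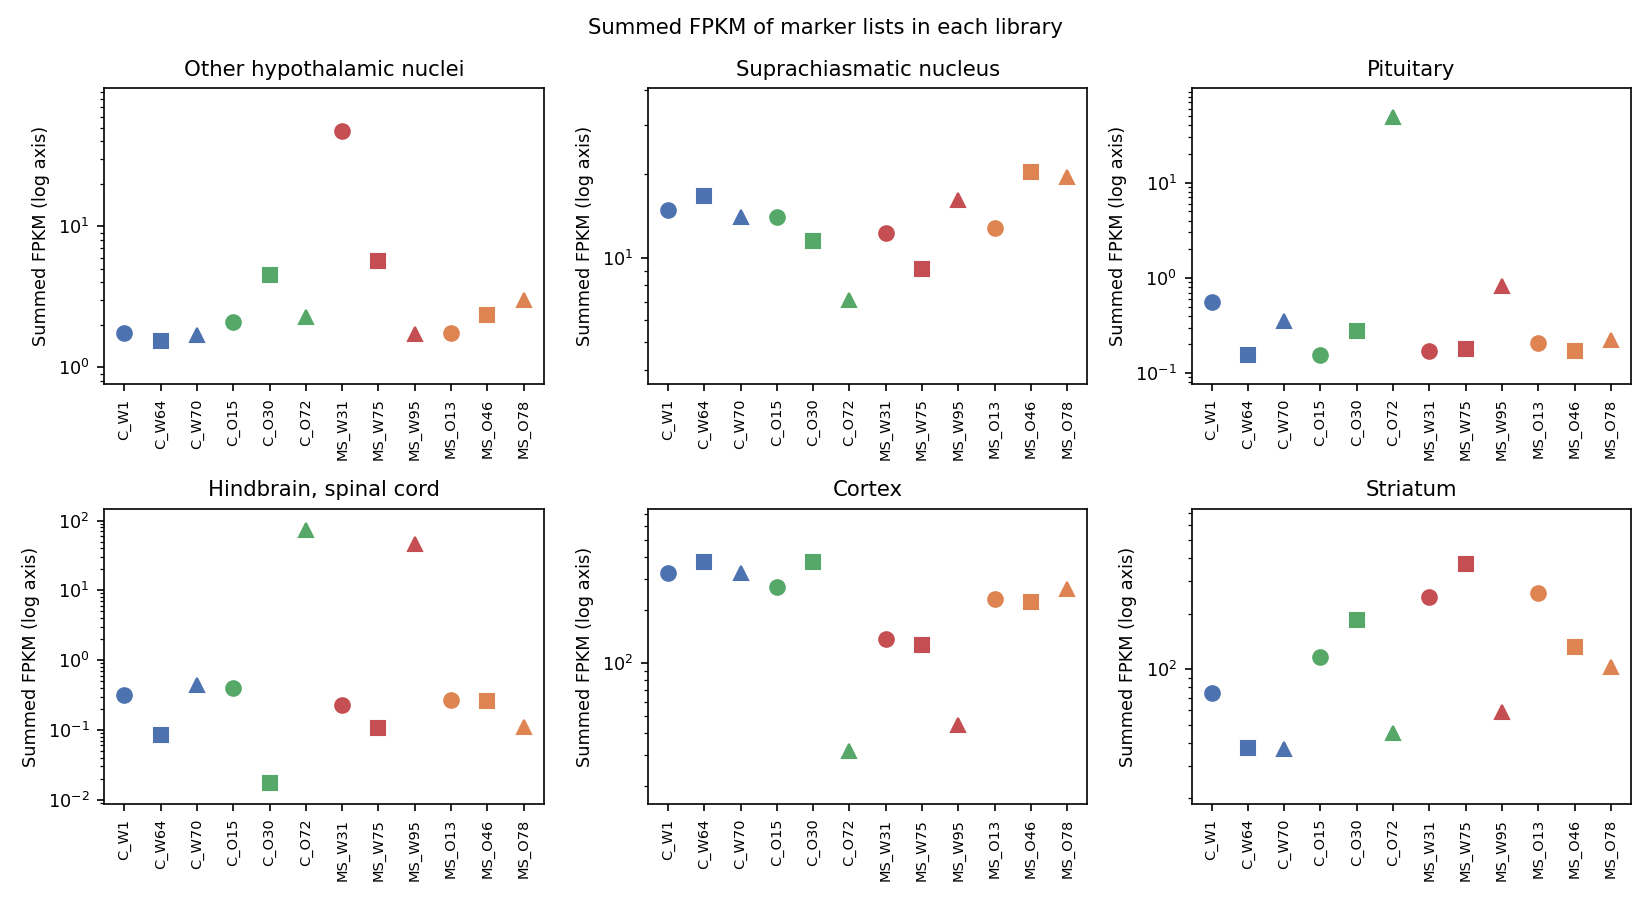
Summed FPKM (log axes with a different range in each panel) of the marker lists in each of the 12 libraries, colored by group. The hypothalamic sum is highest in MS_W31 at 47.6, and the hindbrain sum is high only in C_O72 and MS_W95 at 74.1 and 46.4.

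Beyond the 4 genes, 29 genes that act with them were examined, of which 25 passed the filter on mean FPKM. In the limma fit none of the 25 passed an adjusted p of 0.05 in any of the 4 comparisons. Of all 21393 genes, 0.00467% passed between C_W and MS_W, 0.00467% for C_O against MS_O, 0% for C_W against C_O and 0.00467% for MS_W against MS_O. At an unadjusted p under 0.05 there were 5 of the 25 in the first of these comparisons (10.5% of all tested genes), 2 in the second (8.88%), 0 in the third (3.55%) and 3 in the last (6.09%). On the estimated counts, whose filters admitted 25 to 27 of the 29 genes, edgeR called 0 of them in each comparison, where it called 0.00451%, 0.00451%, 0% and 0.00451% of all genes. DESeq2 called 2 of 27 between C_W and MS_W (1.89% of all genes) and 1 of 25 for C_O against MS_O (0.872%). It called 0 in the other comparisons (0.259% for C_W against C_O and 0.352% for MS_W against MS_O). The groups did not overlap between C_W and MS_W for 44% of the 25 genes, 6 higher and 5 lower in MS_W, against 24.6% of all tested genes. Between C_O and MS_O the share was 4% against 12.2%. The median difference of the 25 genes was 0.01 between C_W and MS_W on the log2(FPKM + 1) scale, against 0.06 over all genes.

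Among regulators of the neurons or of the peptide genes, Arnt2, the partner of Sim1 in its dimer, and Pou3f2, which acts downstream of Sim1, were both lower in every MS_W brain than in every C_W brain. Arnt2 had an FPKM of 44.6, 46.5 and 48.3 in C_W and 38.8, 39.3 and 22.5 in MS_W. The difference of mean log2(FPKM + 1) was -0.50 (SE 0.26, limma, adjusted p = 0.530). Pou3f2 had 5.03, 4.69 and 5.62 in C_W and 3.71, 3.85 and 2.73 in MS_W, a difference of -0.47 (SE 0.24, limma, adjusted p = 0.508). The direction of these differences was opposite to that of Sim1, and neither passed the test. Sim2 and Esr2 were below the filter.

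Among the receptors, Avpr1a, the vasopressin receptor of the brain and vessels, was higher in every MS_W brain than in every C_W brain. Its FPKM was 0.0740, 0.164 and 0.113 in C_W and 0.605, 0.363 and 0.331 in MS_W. The difference of mean log2(FPKM + 1) was 0.35 (SE 0.13, limma, adjusted p = 0.391). The unstressed brain C_O72, with an Avp of 1.06, had an Avpr1a of 0.591, above MS_W75 and MS_W95. Oxtr, the oxytocin receptor, overlapped between the groups. It had 1.39, 1.05 and 0.884 in C_W and 3.39, 2.70 and 0.422 in MS_W, a difference of 0.44 (SE 0.46, limma, adjusted p = 0.718). Outside these groups Oxtr was as high beside little Oxt, with 3.17 in MS_O46 and 2.57 in MS_O78, where Oxt had 0.272 and 0.721. Avpr1b, the receptor of pituitary corticotrophs, and Avpr2, the receptor of the kidney, were below the filter. Avpr1b was listed at 0.0001 in every brain of C_O and MS_W, and Avpr2 had at most 0.129.

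Among 7 genes of prohormone processing and peptide breakdown, none passed the test in any comparison. Pcsk2 and Pcsk1, the convertases that cut prohormones, were lower in every MS_W brain than in every C_W brain. Pcsk2 had an FPKM of 58.6, 68.1 and 64.8 in C_W and 38.3, 42.0 and 20.6 in MS_W, a difference of -0.96 in mean log2(FPKM + 1) (SE 0.46, limma, adjusted p = 0.489). Pcsk1 had a difference of -0.56 (SE 0.29, limma, adjusted p = 0.523). Among 5 secretory granule genes, Scg2, which encodes secretogranin II, had 98.1, 83.2 and 65.9 in C_W and 182.5, 185.7 and 138.1 in MS_W. Its difference was 1.03 (SE 0.29, limma, adjusted p = 0.303). Chga, chromogranin A, had a difference of 0.39 (SE 0.25, limma, adjusted p = 0.577), again without overlap.

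Peptide genes of the same nuclei, and Nos1, the neuronal nitric oxide synthase found in many of these neurons, differed most in size. Cartpt, which encodes the CART peptide, had an FPKM of 4.55, 2.17 and 2.95 in C_W and 12.97, 22.4 and 28.8 in MS_W. Its difference of mean log2(FPKM + 1) was 2.38 (SE 0.44, limma, adjusted p = 0.147). In MS_W95, where Avp and Oxt were low, Cartpt was at its highest. Gal, galanin, had 1.24, 1.76 and 0.207 in C_W and 7.46, 6.47 and 7.80 in MS_W, a difference of 2.07 (SE 0.83, limma, adjusted p = 0.437). Its highest value was 12.1 in C_O72. Nos1 had 1.39, 1.85 and 1.25 in C_W and 4.50, 3.42 and 12.1 in MS_W, a difference of 1.46 (SE 0.42, limma, adjusted p = 0.303). Cck, cholecystokinin, which the cortex also makes in quantity, had 155.4, 143.6 and 159.9 in C_W and 80.2, 61.2 and 18.3 in MS_W, a difference of -1.74 (SE 0.97, limma, adjusted p = 0.544). Cartpt and Nos1 were the genes that DESeq2 called, with adjusted p of 0.000194 and 0.0156. Over all alternatives the adjusted p of Cartpt lay between 0.000194 and 0.484 and that of Nos1 between 0.0156 and 0.683.

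Pdyn, which encodes dynorphin and is made by vasopressin neurons and in quantity by the striatum, was singled out after its values were seen. Its FPKM was 9.00, 7.09 and 8.57 in C_W and 23.5, 40.4 and 1.80 in MS_W, so MS_W31 and MS_W75 were high and MS_W95 low, as for Avp. Its difference on the log2(FPKM + 1) scale was 0.63 with 12 libraries (SE 0.85, limma, adjusted p = 0.784). With the 10 libraries it was 1.80 (SE 0.29, limma, adjusted p = 0.0297), where 1.15% of all tested genes passed. Over all alternatives its adjusted p lay between 0.0297 and 0.950, and without MS_W75 the difference was -0.15. The striatal sum was also high in MS_W31 and MS_W75, and its part in the Pdyn values was not tested.

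Between C_O and MS_O, Trh, the thyrotropin-releasing hormone gene, had the largest difference of the 25 genes, and it is named here after its values were seen. Its FPKM was 0.770, 4.37 and 0.387 in C_O and 8.84, 37.4 and 53.0 in MS_O, without overlap. The difference of mean log2(FPKM + 1) was 3.53 (SE 0.91, limma, adjusted p = 0.479). Trh was the gene that DESeq2 called in this comparison, with an adjusted p of 0.0103, and over all alternatives its adjusted p lay between 0.0103 and 0.957. In the same brains Avp, Oxt and Otp had no such order. A test of whether the CUMS difference itself differed between water and krill oil (limma interaction) was passed by none of the 25 genes and none of the 21393 tested genes, and 2 of the 25 had an unadjusted p under 0.05, as did 7.23% of all tested genes.

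**Figure D5:**
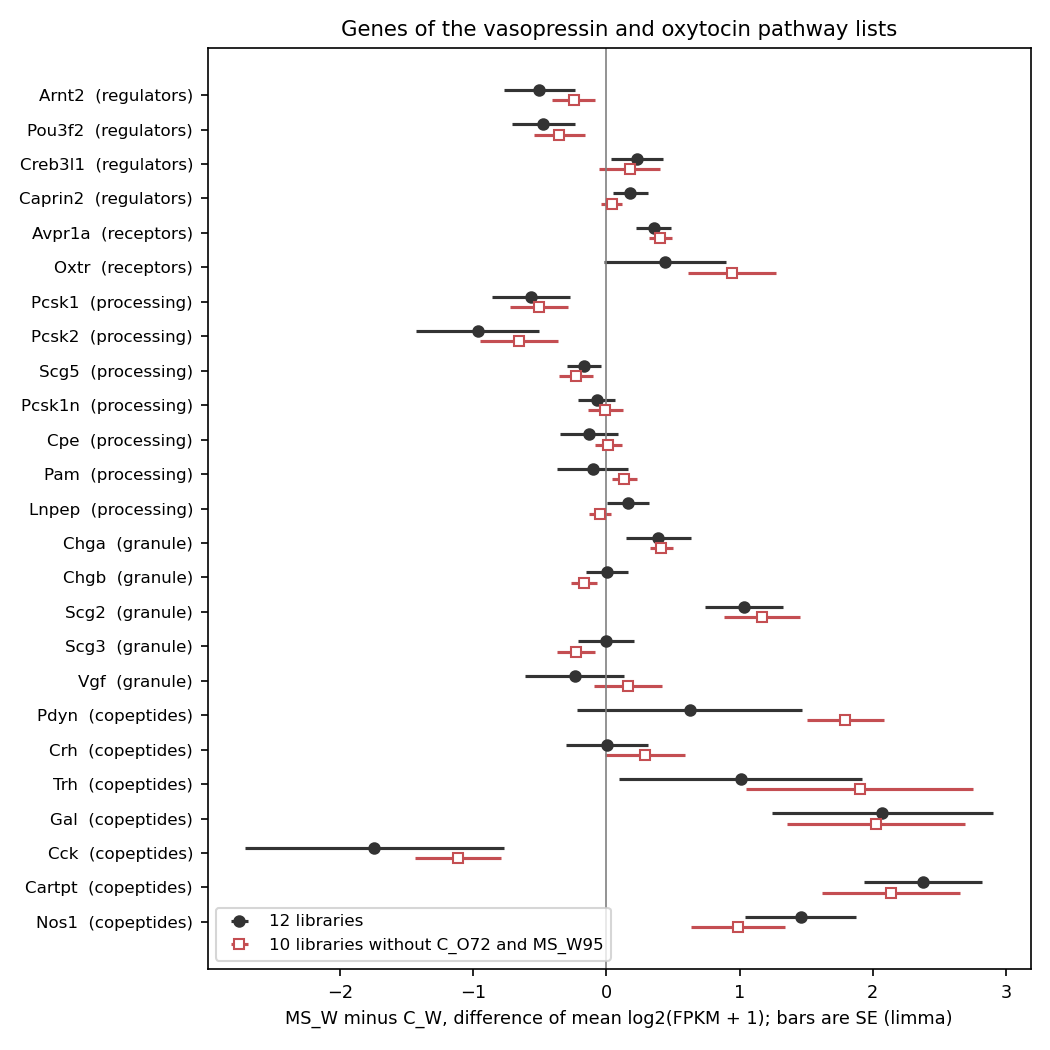
Difference of mean log2(FPKM + 1), MS_W minus C_W, with its SE from limma, for the 25 tested genes that act with the 4 genes, in 12 libraries (filled) and in 10 libraries without C_O72 and MS_W95 (open). Cartpt is the farthest to the right at 2.38 with 12 libraries, Cck the farthest to the left at -1.74, and Pdyn moves from 0.63 to 1.80.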

How the data were processed

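The authors trimmed reads with cutadapt 1.9, aligned them with HISAT2 2.0.4 to the mouse genome (mm10), assembled transcripts with StringTie 1.3.4d and estimated expression with Ballgown, per the labels and the study's methods. The deposited table gave the FPKM and an estimated count per gene and library. The 4 genes, the gene lists and the tests were chosen with earlier results of these data known. Genes under a mean FPKM of 0.1 were left out, and log2(FPKM + 1) of the remaining 21393 was fitted for the 4 groups together with limma 3.58.1 (lmFit, eBayes with trend) in R 4.3.3, and p was adjusted by Benjamini-Hochberg over all of them. Each p-value sets a difference against the spread between mice within groups, pooled over the 4 groups and drawn toward the trend over all genes. Of each gene list, the genes with the largest difference between C_W and MS_W are named, with all receptors. Alternatives used edgeR 4.0.16 and DESeq2 1.42.0 on rounded estimated counts. Sequences and motifs were read from RefSeq promoter windows with Python 3.11.15.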

Additional observations from a re-analysis of the deposited data

How the results depend on the processing

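No paired analysis was possible because the mouse numbers are not shared between groups. Fold sizes of low genes depended on the scale, since log2(FPKM + 1) shrinks them. For MS_W minus C_W, the Avp difference was 7.66 with a pseudocount of 0.01, 7.56 with edgeR and 7.59 with DESeq2. That of Oxt was 5.88, 6.16 and 6.17, and that of Otp 5.91, 6.16 and 6.19, or 3.62 with a pseudocount of 0.1. For MS_O minus C_O, Oxt was -1.99 with edgeR and -2.01 with DESeq2, and Otp was -1.65 and -1.96 with pseudocounts of 0.1 and 0.01, -4.64 with edgeR and -4.70 with DESeq2. The cause was not tested beyond the change of scale. Leaving out each library in turn, MS_W minus C_W lay between 2.48 and 5.31 for Avp, 2.15 and 4.45 for Oxt and 1.12 and 1.27 for Otp. MS_O minus C_O lay between -0.73 and 0.46 for Avp, -1.15 and 0.06 for Oxt and -1.08 and -0.04 for Otp, with the sign of Avp and Oxt resting on C_O30. C_O minus C_W lay between 0.67 and 1.85 for Avp and 0.25 and 1.46 for Oxt, lowest without C_O30, and between 0.07 and 1.12 for Otp, lowest without C_O72. MS_O minus MS_W lay between -4.19 and -1.36 for Avp, -4.14 and -1.84 for Oxt and -1.24 and -1.09 for Otp. The count of pathway genes past the adjusted threshold was 0 except with DESeq2 (2 between C_W and MS_W, 1 between C_O and MS_O) and with the 10 libraries (1 between C_W and MS_W). The Pdyn difference between C_W and MS_W ran from -0.15 without MS_W75 to 1.80 without MS_W95. With 3 mice per group, low counts of Sim1 and of Otp in C_W limit what can be said of their levels.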
